A study of Mus musculus with 8 samples.

Results

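The enterocyte-like cells of the large tumor were 249 of the 1533 cell barcodes of that tumor (16.2%, exact 95% binomial interval 14.4% to 18.2%), in a series of 4345 barcodes. They were chosen by their own counts, as barcodes with at least 5 unique molecular identifiers (UMIs, each a captured mRNA molecule) in sum over Fabp1, Fabp2 and Apoa4 and fewer than 3 in sum over the goblet cell genes Muc2 and Zg16. The tumors came from KPC mice, a model of pancreatic ductal adenocarcinoma in which Cre under the Pdx-1 promoter (Pdx-1-Cre) switches on mutant alleles, among them LSL-Trp53R172H/+. Both tumors came from this model, and no treatment of the mice and no age was named in the sources used here. There was 1 tumor of medium size and 1 of large size, each run as 4 technical replicates that are pooled in 1 count table, so each tumor is 1 sample. With 1 tumor per size no test was possible, and cells of a tumor are not replicates. Sums of UMIs are given as CPM (UMIs per 1000000 UMIs of the summed cells, not divided by gene length) with exact 95% Poisson intervals, and ratios of CPM with exact conditional intervals, all of which cover counting error only.

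Enterocytes are the absorptive cells that line the villi of the small intestine. They hydrolyse sugars and peptides with enzymes anchored in the brush border, a dense carpet of microvilli on the side facing the gut lumen, and take up the products through transporters. Dietary fat is taken up as fatty acids and monoacylglycerol, rebuilt to triglyceride and packed with apolipoproteins into chylomicrons, particles that leave the cell for the lymph. Fabp1 and Fabp2 encode fatty acid binding proteins of the cytosol, and Apoa4 an apolipoprotein of chylomicrons.

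The members held 253084 UMIs, with a median of 839 per cell (529 to 5173) and of 482 detected genes. There were 2239012 UMIs over the large tumor and 20301669 UMIs over the 2812 cells of the medium tumor. A count of 0 in the members allowed up to 11.9 CPM, the level of 3 UMIs. The members were compared with all other 1284 cells of the large tumor (median 1123.5 UMIs) and with its 627 other epithelial cells (median 1702), which had at least 3 UMIs over 8 pan-epithelial genes and fewer than 3 over 6 myeloid genes. They were also compared with its 18 goblet-like cells (median 1074.5), which had at least 3 UMIs over Muc2 and Zg16. The 9 cells past both rules were kept apart. The tables shared 5 barcodes, none of them a member, and the 13 mitochondrial protein genes were at 0 UMIs in both. Scrublet, a doublet caller, marked 14 cells (0.913%) of the large tumor, 4 of them members, and 6 members had at least 3 myeloid UMIs.

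The rule genes, shown first because they chose the cells, were seen in most members. Fabp1 gave 4659 UMIs with a median of 13 per member (0 to 265), Fabp2 875 UMIs with a median of 3 (0 to 24) and Apoa4 624 UMIs with a median of 1 (0 to 21). All of the rule genes were detected in 137 members, a pair of them in 98 and a single gene in 14. Their windows upstream of the transcription start are printed here because the members were defined by these genes, with those of Sis and Alpi, which encode brush border enzymes that the rule did not use. The bases come from RefSeq (GRCm38.p6), are written 5′ to 3′ on the strand of the gene, begin 250 bases before the RefSeq start, and stop where the GENCODE gene model begins. Capitals mark matches on either strand to a CDX motif (TTTATNG) or an HNF4 motif (CAAAGTNCA), named for transcription factors of the gut epithelium. Matches of the 2 motifs did not overlap in these windows.
Fabp1 (chr6:71199629-71199826, plus strand): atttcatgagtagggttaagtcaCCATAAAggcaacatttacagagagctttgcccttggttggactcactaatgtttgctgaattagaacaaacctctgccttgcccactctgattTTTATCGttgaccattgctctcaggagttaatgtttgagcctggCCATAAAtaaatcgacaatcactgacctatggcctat
Fabp2 (chr3:122894822-122895071, plus strand): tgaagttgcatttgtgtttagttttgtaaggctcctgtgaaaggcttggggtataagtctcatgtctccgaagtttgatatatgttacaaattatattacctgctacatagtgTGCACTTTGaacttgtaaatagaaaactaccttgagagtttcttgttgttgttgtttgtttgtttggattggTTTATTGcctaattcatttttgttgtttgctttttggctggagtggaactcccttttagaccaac
Apoa4 (chr9:46240594-46240695, plus strand): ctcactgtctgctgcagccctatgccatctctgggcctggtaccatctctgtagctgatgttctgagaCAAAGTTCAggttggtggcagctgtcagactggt
Sis (chr3:72967864-72968113, minus strand): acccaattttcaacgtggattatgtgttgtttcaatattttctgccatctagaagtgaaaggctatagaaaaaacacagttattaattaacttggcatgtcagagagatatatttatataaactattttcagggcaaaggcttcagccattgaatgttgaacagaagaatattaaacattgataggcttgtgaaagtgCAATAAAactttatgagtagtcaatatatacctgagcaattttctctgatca
Alpi (chr1:87101607-87101856, minus strand): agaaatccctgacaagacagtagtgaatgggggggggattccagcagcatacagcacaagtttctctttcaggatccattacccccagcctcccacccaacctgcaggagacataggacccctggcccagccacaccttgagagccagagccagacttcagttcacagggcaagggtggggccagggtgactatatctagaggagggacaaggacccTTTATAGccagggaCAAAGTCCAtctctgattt

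The Fabp1 window held the CDX motif 3 times, with the match beginning 227, 133 and 89 bases before the RefSeq start. In Fabp2 the HNF4 motif began at 137 bases and the CDX motif at 65 bases before the start, and in Apoa4 the HNF4 motif began at 182 bases. The Sis window held the CDX motif at 52 bases, and Alpi held CDX at 33 bases and HNF4 at 19 bases. Of the 20 genes with the highest ratio to other epithelial cells, 17 had a RefSeq window, and 7 of these held the CDX motif (Fabp1, Clec2h, Fabp2, H2-Q2, Ms4a10, Alpi and Sis) and 4 the HNF4 motif (Apoa4, Fabp2, Alpi and Muc13). The rule genes head this ranking because they chose the cells, and without them 5 of 14 held the CDX motif and 2 of 14 the HNF4 motif. Over all 27025 genes with a window, 11.3% held the CDX motif and 1.40% the HNF4 motif, and over all 32851 windows 9.81% and 1.19%. A match describes the letters of the window and is not evidence that a factor binds there. For the factors themselves, Cdx1 was at 71.1 CPM (42.2 to 112) in the members and 13.0 CPM in other epithelial cells, Cdx2 had 1 UMI and 5 UMIs, and Hnf4a was at 198 CPM (147 to 260.5) and 47.3 CPM.

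Just outside the threshold, the 22 cells with 3 to 4 rule UMIs held 53 enterocyte genes that the rule did not use (the lists for lipid handling, brush border enzymes and nutrient transporters) at 1865 CPM (1448 to 2364). Just inside it, the 14 cells with 5 to 6 rule UMIs held them at 7392 CPM (6092 to 8888). Cells with 0 rule UMIs were at 569.7 CPM, and the 31 members with 40 to 291 rule UMIs at 11652 CPM. Tff1, Tff2 and Agr2, genes of gastric-type and mucous epithelium, went the other way. In sum they were at 3839 CPM in the cells with 3 to 4 rule UMIs and 131 CPM in those with 5 to 6. In the cells with 0 and with 1 to 2 rule UMIs they were at 2329 and 2393 CPM. No interval was computed for this sum. Tff1 and Tff2 had the lowest ratios of the members to other epithelial cells, so their fall is a description and no check of the threshold. Between 5 and 291 rule UMIs the enterocyte genes differed by less than 2-fold from bin to bin, while below the threshold they were at most 1865 CPM. The bins have different depths, with medians from 698 to 1529 UMIs per cell. They hold only cells with fewer than 3 UMIs over Muc2 and Zg16, so the goblet-like cells are in none of them.

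**Figure D1:**
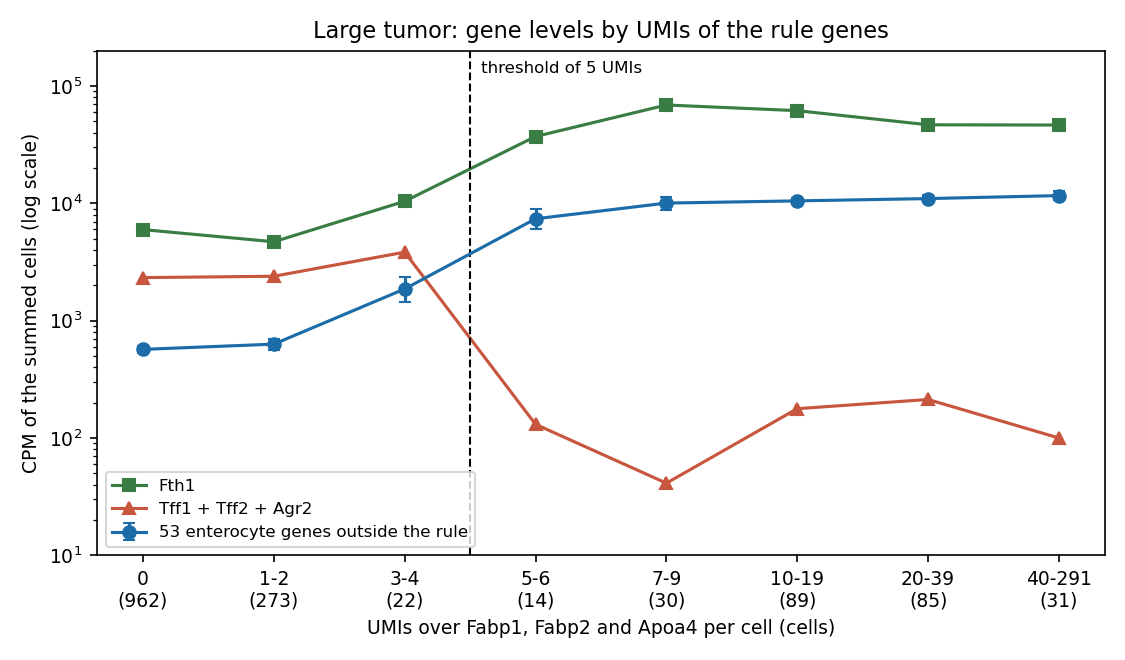
CPM (log scale) of summed cells of the large tumor by the number of UMIs over Fabp1, Fabp2 and Apoa4 per cell, with the number of cells in brackets. Blue points are 53 enterocyte genes outside the rule with exact 95% Poisson intervals, green squares Fth1 and red triangles Tff1, Tff2 and Agr2 in sum. Enterocyte genes and Fth1 are higher, and the Tff1 group lower, in every bin right of the dashed threshold, where the enterocyte genes lie between 7392 and 11652 CPM.

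These 53 genes are the check of the label against markers outside the rule. They made up 1.06% of the UMIs of the members (2689 UMIs) and 0.0653% of those of all other cells (1296 UMIs). Counts were then thinned by random draws to 500 UMIs per cell, and no cell was shallower than that. In thinned counts 206 members (82.7%, exact 95% binomial interval 77.5% to 87.2%) had at least 3 UMIs of them, with a median of 6. The share was 1.91% in other epithelial cells, 1.78% in myeloid cells and 1.64% in cells of the medium tumor, and 13 members had 0. Most members thus held several molecules of enterocyte genes besides those that chose them. Lct and Rbp2, genes known as strongly expressed in proximal enterocytes, were low in level, with 1 UMI for Lct and 19.8 CPM for Rbp2, which was 2.29 CPM in other epithelial cells and 34.0 CPM in the medium tumor. Anpep, an aminopeptidase of the brush border, had 0 UMIs in all of the large tumor, which allows up to 1.34 CPM, and was at 1.43 CPM in the medium tumor. The members were called enterocyte-like with these exceptions.

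Detection in single cells was set against cells that should lack the genes. With cells thinned to 500 UMIs, Prap1, a proline-rich secreted protein of the gut, was seen in 77.1% of members, 7.66% of other epithelial cells and 3.11% of myeloid cells. Alpi was seen in 49.8% of members, 2.87% of other epithelial cells and 0 of the 225 myeloid cells, which allows a share of up to 1.33% (3 of 225 cells). Before thinning, the shares for Alpi were 65.9% of members and 5.42% of other epithelial cells, at median depths of 839 and 1702 UMIs (688 in myeloid cells). The rule fixed the difference for its own genes, so Fabp1 is given only as a level outside the members. It had a UMI in 6.86% of other epithelial and 5.33% of myeloid cells after thinning. Relative to the members, the myeloid level was 0.588% for Fabp1, 1.32% for Fabp2, 0.530% for Gsta1 and 3.60% for Apoc2. Cells were called myeloid with at least 3 myeloid UMIs and fewer than 3 pan-epithelial UMIs, and only if they were not members. Their sum over the rule genes was thus capped below 5 UMIs, and the highest in any of them was 4. The myeloid levels of Fabp1 and Fabp2 are therefore partly set by the classes. Whether the shares in myeloid cells come from free RNA in droplets was not tested. The members were above the myeloid shares for each gene plotted outside the rule except Tff1 and Lyz2.

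**Figure D2:**
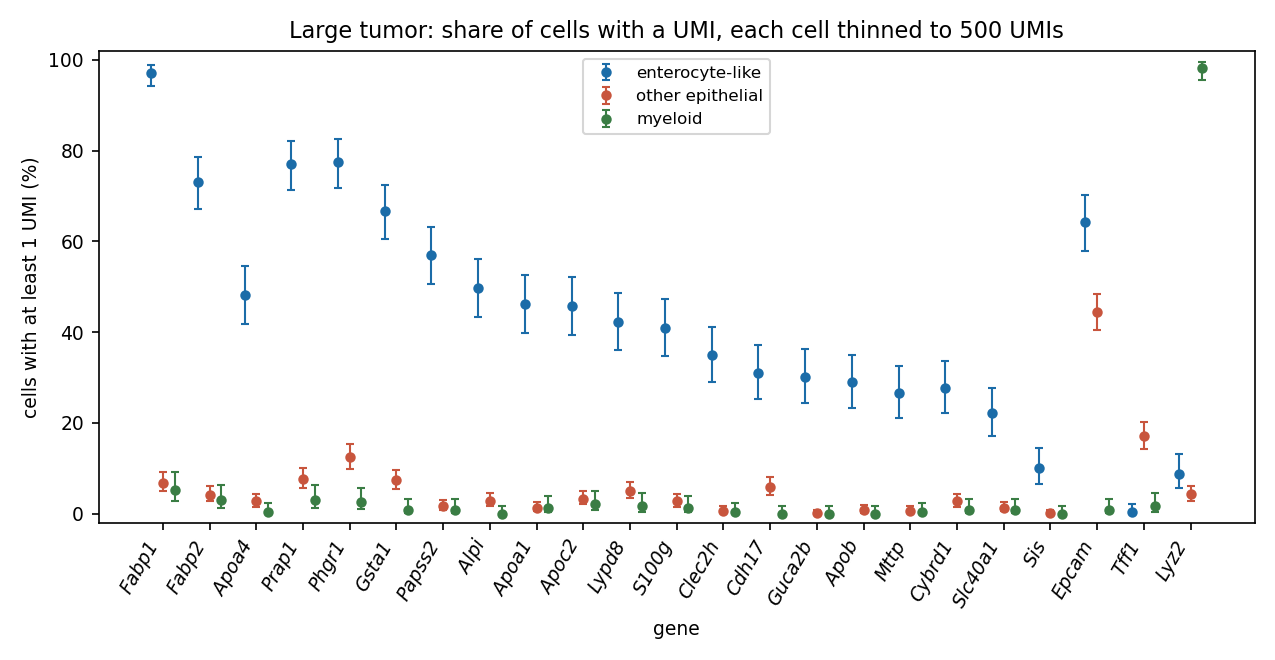
Share of cells with at least 1 UMI of each gene (percent) after every cell of the large tumor was thinned to 500 UMIs, for enterocyte-like (blue, 249 cells), other epithelial (red, 627) and myeloid cells (green, 225), with exact 95% binomial intervals. The rule genes, which chose the cells, stand first, and genes from Prap1 to Sis lie higher in the enterocyte-like cells, from 77.1% for Prap1 to 10.0% for Sis. Tff1 marks the other epithelial and Lyz2 the myeloid cells.

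A gene was counted as higher or lower when its CPM differed at least 2-fold after 10 CPM was added to both sides. Against other epithelial cells, 11.4% of the 7596 genes with at least 20 UMIs in the large tumor were higher in the members and 21.1% lower. That balance turns with the constant added, since 50 CPM gave 449 higher and 343 lower genes in place of 869 and 1604, and 452 and 364 against all other cells in place of 813 and 1781. Over all 14153 genes with at least 1 UMI, the background for the gene lists, 8.27% were higher and 11.6% lower, with a median log2 ratio of -0.11. Against all other cells, 10.7% of the 7596 genes were higher and 23.4% lower, or 7.77% and 12.6% of the 14153. The lists hold every gene of the list that is in the table, with no minimum of UMIs, except that Fabp1, a rule gene, was left out of the proximal list.

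Genes of chylomicron assembly and lipid handling were higher in the members. Of 22 genes, 19 were higher and 0 lower than in other epithelial cells, with a median log2 ratio of 3.04, and they summed to 6927 CPM against 447 CPM, a ratio of 15.5 (14.1 to 17.1). Apob, the structural protein of the chylomicron, was at 676 CPM (578 to 785) in the members against 26.0 CPM, a ratio of 26.0 (17.9 to 38.8). Mttp, which loads lipid onto it, was at 727 CPM (626 to 840) against 14.5 CPM. The apolipoproteins Apoa1 and Apoc2 were at 1584 and 1422 CPM in the members against 19.1 and 64.9 CPM. Apoa1 lies at chr9:46228580-46230466 and Apoc3 at chr9:46232933-46235636 of GRCm38, next to the rule gene Apoa4 at chr9:46240696-46243459, and Apoc3 was at 126 CPM (86.5 to 178) against 5.34 CPM. Genes of triglyceride rebuilding were also higher, with Mogat2 at 134 against 4.58 CPM, Dgat1 at 209 against 16.8 CPM and Agpat2 at 478 against 38.9 CPM. Npc1l1, the cholesterol uptake protein, had 29 UMIs in the members and 1 in other epithelial cells. The sterol exporters Abcg5 and Abcg8 had 7 and 12 UMIs in the members and 0 in all other cells of the large tumor. Cd36, a fatty acid transporter, was at 0 in other epithelial cells but at 51.3 CPM in myeloid cells. With that 0 set at 3 UMIs, Cd36 was 32.8-fold higher in the members than in other epithelial cells. The exact lower limit of this ratio, without that setting, was 24.2. Creb3l3, a transcription factor of lipid metabolism in liver and gut, was at 458 CPM (379 to 549.7) against 13.7 CPM. The genes that were neither higher nor lower were Scarb1, Plin2 and Abca1. Retinoid handling genes, for vitamin A uptake, were higher in 4 of 6 cases, Rbp2 among them, at 324 CPM against 30.5 CPM, a ratio of 10.6 (7.19 to 15.9), and Dgat1, which both lists hold, gave 53 of their 82 UMIs in the members.

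Brush border enzymes were higher in the members too. Of 16 genes 11 were higher and 0 lower, at 2485 CPM against 67.2 CPM, a ratio of 37.0 (29.6 to 46.8). Alpi, intestinal alkaline phosphatase, was at 1252 CPM (1118 to 1398) against 38.2 CPM, a ratio of 32.8 (24.3 to 45.2). Sis, sucrase-isomaltase, had 58 UMIs in the members and 1 in other epithelial cells, a ratio of 300.3 (51.8 to 12061), and Mgam, its maltase partner, was at 245 CPM (188 to 314) against 6.87 CPM. Treh, trehalase, had 17 UMIs against 1. Among the peptidases, Mep1b was at 146 against 1.53 CPM, Enpep at 130.4 against 2.29 CPM and Dpp4 at 79.0 against 3.05 CPM. Tmprss15, enteropeptidase, the activator of trypsinogen made by the proximal gut, had 3 UMIs in the members and 0 elsewhere in the large tumor. Lct, Mep1a, Anpep, Naaladl1 and Xpnpep2 were neither higher nor lower, the last 3 with 0 UMIs in every cell of the large tumor.

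The structural genes of the microvillus followed, with 11 of 12 higher, at 2596 CPM against 657 CPM, a ratio of 3.95 (3.56 to 4.38). Vil1, which bundles the actin core, was at 435 CPM (357 to 524) against 39.7 CPM. Cdhr2 and Cdhr5, cadherins that link the tips of neighbouring microvilli, were at 162 against 4.58 CPM and 221 against 8.40 CPM. Ezr, which is shared by many epithelia, was at 581 CPM (491 to 683) against 431 CPM and was the only gene of the list not past 2-fold. Without Ezr the list was at a ratio of 8.92 (7.71 to 10.3).

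Nutrient transporters, most of them for sugars, peptides and amino acids, were sparse but higher. Of 15 genes 12 were higher and 0 lower, at 1213 CPM against 88.5 CPM, a ratio of 13.7 (11 to 17.1). The list also holds Slc9a3, Slc26a6, Slc28a2 and Slc34a2, which carry other solutes. Slc5a1, the sodium-glucose cotransporter, was at 308 CPM (244 to 385) against 8.40 CPM, and Slc15a1, the peptide transporter, had 34 UMIs against 3. The amino acid transporters Slc6a19 and Slc7a9 had 18 and 31 UMIs against 2 and 3. Slc3a2, a partner of amino acid transporters in many cell types, was at 35.6 CPM against 40.5 CPM and not past 2-fold, and Slc9a3 and Slc34a2 had 0 UMIs in the large tumor. Khk, which phosphorylates fructose, was at 158 against 13.7 CPM.

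Iron and calcium absorption genes, which are known for the duodenum, were high. Cybrd1, the ferric reductase of the brush border, was at 925 CPM (809.9 to 1051) against 61.8 CPM. Slc11a2, the ferrous iron importer, was at 494 CPM (411 to 588) against 13.0 CPM, Slc40a1, the iron exporter ferroportin, at 494 CPM (411 to 588) against 16.0 CPM, and Heph, the oxidase that works with it, had 26 UMIs against 3. S100g, the calcium-binding calbindin of the gut, was at 1450.1 CPM (1306 to 1606) against 105 CPM, and Vdr, the vitamin D receptor, at 233 CPM (177 to 301) against 6.11 CPM. In the list of iron, calcium and vitamin uptake 6 of 9 genes were higher, at 3544 CPM against 218 CPM, a ratio of 16.2 (14.2 to 18.6). Trpv6, Cubn and Amn were not, with 0, 0 and 4 UMIs in the members. Fth1, the ferritin heavy chain that stores iron, was the gene with the highest CPM in the members, at 53259 CPM (52364 to 54166), against 3255 CPM in other epithelial, 22537 CPM in myeloid and 4161 CPM in goblet-like cells. The next levels in the members were Fabp1, Malat1, a nuclear noncoding RNA, at 18049 CPM, the ribosomal gene Rpl32 and Plac8, at 9033 CPM (8666 to 9411) against 5276 CPM in other epithelial and 4724 CPM in goblet-like cells. Fth1 has many pseudogene copies, so its count is uncertain where reads could be split among them.

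Genes of xenobiotic metabolism were higher in 21 of 24 cases and lower in 1, at 8092 CPM against 501 CPM, a ratio of 16.2 (14.8 to 17.7). Gsta1, a glutathione transferase, was at 4303 CPM (4051 to 4566) against 235 CPM, and Ces2e, a carboxylesterase, at 755 CPM (651 to 869.6) against 18.3 CPM. Its neighbours Ces2a and Ces2c, which lie with it on chromosome 8, had 41 and 5 UMIs in the members and 6 and 0 in other epithelial cells. Adh1, an alcohol dehydrogenase, was at 356 CPM (286 to 437) against 2.29 CPM, and the cytochromes Cyp3a13 and Cyp2c65 at 348 against 21.4 CPM and 146 against 6.11 CPM. Abcc2, an exporter of conjugates, had 45 UMIs in the members and 0 in other epithelial cells, at least 77.7-fold higher. Gstm1 was the lower gene, at 43.5 CPM against 128 CPM. Gsta, Ces2, Cyp3a and Ugt genes have close paralogs, so counts within these families may be split among copies.

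Genes that mark positions along the gut were compared as levels. Of the distal list, Fabp6 and Slc10a2, the ileal bile acid binding protein and importer, had 0 UMIs in the members, which allows up to 11.9 CPM, and Slc51a, the basolateral bile acid exporter subunit, had 12 and its partner Slc51b 3. The 5 distal genes were higher in 2 cases, at 59.3 CPM against 2.29 CPM, a ratio of 25.9 (7.32 to 139), on 15 and 3 UMIs. The 9 colonocyte genes were higher in 2 cases, at 86.9 CPM against 8.40 CPM, a ratio of 10.4 (4.81 to 23.6), on 22 UMIs in the members, of which Slc26a3, an anion exchanger also known from the small intestine, gave 12. Car1 and Aqp8 had 0 UMIs. The proximal list was higher in 6 of 9 cases, at 2161 CPM against 476 CPM, a ratio of 4.54 (4.04 to 5.10). In it, Ada, adenosine deaminase, was at 328 CPM (261 to 407) against 35.9 CPM, Gata4 had 6 UMIs against 3, and Onecut2 was at 277 CPM against 359 CPM and not past 2-fold. The intestinal transcription factors were higher in 13 of 21 cases and lower in 0, with Klf4 at 439 against 204 CPM and Elf3 at 194 against 46.6 CPM. Several were seen in few molecules, such as Hnf4g with 5 UMIs, Isx with 11 and Nr1i2 with 3.

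The highest ratios to other epithelial cells, in genes seen in at least 15% of the members, included genes outside these lists. Clec2h, a lectin-like membrane protein, was at 925 CPM (809.9 to 1051) against 4.58 CPM, a ratio of 202 (91.4 to 556). Guca2b, the hormone uroguanylin, was at 786 CPM (681 to 903) against 3.82 CPM, and Papss2, which makes the sulfate donor of sulfation, at 2248 CPM (2067 to 2441) against 30.5 CPM. Gm766 was at 940.4 CPM (825 to 1068) against 8.40 CPM, and the class I gene H2-Q2 at 446 CPM (368 to 537) against 1.53 CPM, with 2 UMIs there and close paralogs that could share reads. The membrane mucins Muc3 and Muc13 were at 1237 against 45.0 CPM and 443 against 9.92 CPM. Reg1, a secreted lectin, and Prap1 were among the highest ratios to all other cells instead. Against other epithelial cells, Reg1 was at 2817 CPM (2614 to 3032) against 131 CPM and Prap1 at 5595 CPM (5307 to 5894) against 301 CPM. General gut epithelial genes were higher as well, with Phgr1 at 3378 against 409.9 CPM, Cdh17, an intestinal cadherin, at 786 against 68.7 CPM, Krt20, a keratin of mature gut epithelium, at 652 against 35.9 CPM and Pigr, the receptor that carries IgA across the cell, at 865 against 33.6 CPM. Tspan8 was the exception in the list of 9, at 869 CPM against 1375 CPM.

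Genes of duct and carcinoma cells were lower more often than higher. Of 16 genes 8 were lower and 1 higher, at 2505 CPM against 3841 CPM, a ratio of 0.652 (0.600 to 0.709). Tff1 had 3 UMIs in the members, 11.9 CPM (2.44 to 34.6) against 1284 CPM, a ratio of 0.00923 (0.00190 to 0.0270). Among the lowest ratios outside the list, Tff2 was at 23.7 CPM against 888 CPM. Gkn3, a gastrokine of gastric-type epithelium, was at 39.5 CPM against 769 CPM, Wfdc2 at 107 CPM against 1245 CPM and Tm4sf1 at 209 CPM against 2026 CPM. Within the list, Msln and Muc1, surface proteins of pancreatic carcinoma, were at 23.7 against 163 CPM and 15.8 against 127 CPM. Krt7 was at 86.9 CPM against 347 CPM, whereas Krt19 was at 691 CPM against 434 CPM, not past 2-fold. Pdx1, whose promoter drives the Cre, was at 27.7 CPM (11.1 to 57.0) in the members and 19.1 CPM in other epithelial cells, a ratio of 1.45 (0.529 to 3.45) that is not past 2-fold. Dmbt1, a secreted scavenger receptor of the gut and ducts, was the higher gene, at 1047 CPM (925 to 1181) against 406 CPM, but its log2 ratio, with nothing added to the CPM, was 0.52 and not past 2-fold when every cell had the same weight. Without Dmbt1 the list was at a ratio of 0.424. Proliferation genes were lower in 7 of 9 cases, at 150.2 CPM against 531 CPM, 3.54-fold lower.

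Markers of most other cell types were at low levels in the members. The stem cell list (Lgr5, Olfm4, Ascl2, Smoc2, Axin2) gave 3 UMIs, the Paneth list 0 UMIs, the kidney and islet lists 0 UMIs, the endothelial list 1 UMI and the enteroendocrine list 5 UMIs. The hepatocyte list summed to 63.2 CPM, with Alb at 0 UMIs, although liver shares Fabp1, Apoa1 and Apob with the gut. Pan-epithelial genes summed to 5812 CPM against 4659.7 CPM, a ratio of 1.25 (1.18 to 1.32), with Epcam at 1932 CPM (1765 to 2111) against 1176 CPM. The other epithelial cells were chosen by these genes and the members were not, so this ratio is partly set by the classes. Myeloid markers summed to 509.7 CPM in the members, 150.4 CPM in other epithelial cells and 20828 CPM in myeloid cells, and Lyz2 was at 395 CPM against 82.4 CPM. MHC class II genes, which antigen-presenting cells express, were at 130.4 CPM against 41.2 CPM, a ratio of 3.16 (1.99 to 4.97), with 4888 CPM in myeloid cells. Alox5ap of the tuft list was at 47.4 CPM against 8.40 CPM, a ratio of 5.65 (2.28 to 14.1), and 763 CPM in myeloid cells. The other epithelial cells were limited to fewer than 3 UMIs over 6 of the myeloid genes and the members were not. Without the 10 members that Scrublet marked or that had at least 3 myeloid UMIs, 861 genes were higher and 1710 lower than in other epithelial cells, against 869 and 1604 with them, and the log2 ratio of Lyz2, with nothing added to the CPM, was 0.45 in place of 2.26. Immediate early genes, which respond to tissue dissociation, were past 2-fold in 2 of 9 cases, at 3588 CPM against 3096 CPM.

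**Figure D3:**
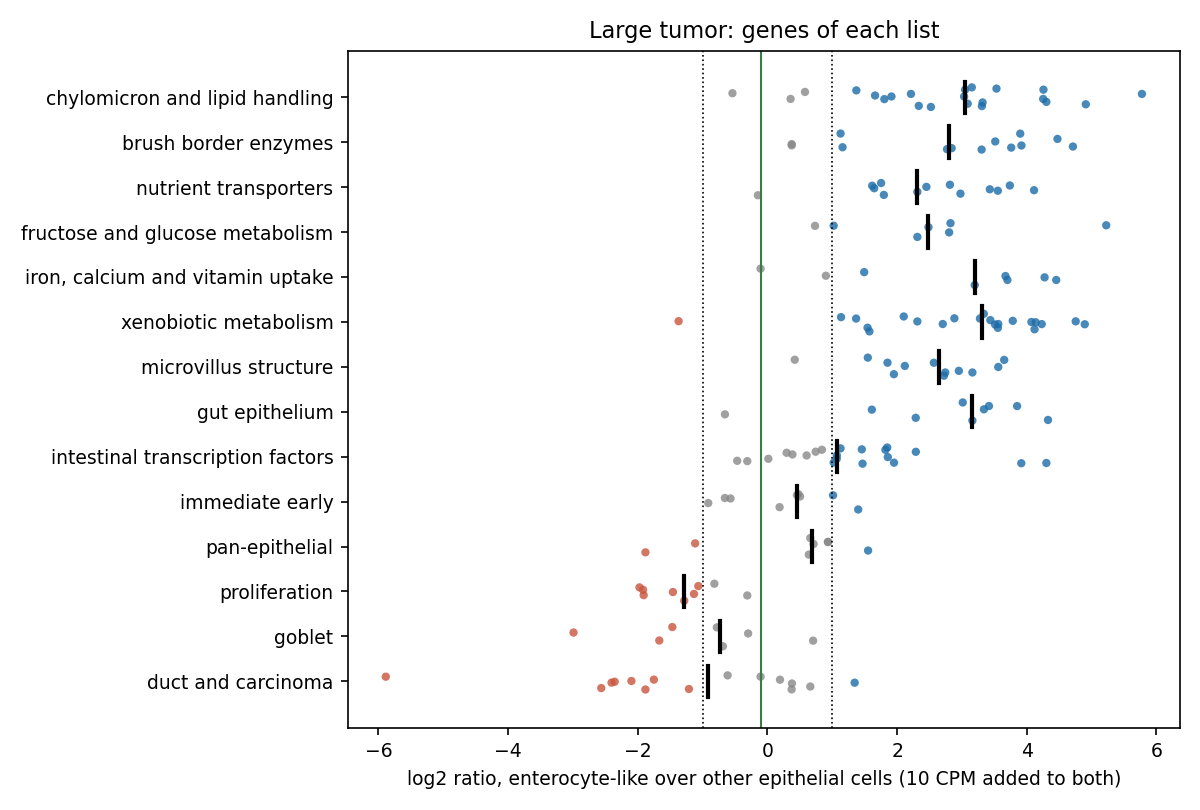
Log2 ratio of CPM in enterocyte-like over other epithelial cells of the large tumor, with 10 CPM added to both, for each gene with at least 1 UMI in 14 lists. Blue genes are at least 2-fold higher, red genes at least 2-fold lower and grey genes neither, black bars are list medians over all genes of the list in the table, and the green line is the median of all 14153 genes (-0.11). Lists of absorption, digestion and detoxification lie to the right, proliferation and most duct and carcinoma genes to the left.

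Between the members and the goblet-like cells, 2329 of 7596 genes were higher in the members (30.7%) and 1447 lower (19%), with a median log2 ratio of 0.27. Over the 14153 genes with at least 1 UMI, 20.2% were higher and 13.2% lower. With TMM scaling 3203 were higher and 681 lower, and the median was 0.59, so the split depends on the scaling. A count of 0 in the 18 goblet-like cells allows up to 112 CPM. Of the 2329 genes 1972 were at 0 there, 1876 of them with less than that floor in the members too, so these counts do not show that the genes are higher in the members. Muc2 and Zg16 chose the goblet-like cells and are no result. Outside the rule, the goblet cell genes Tff3, Agr2, Spink4 and Fcgbp were at 51.4, 126, 3.95 and 23.7 CPM in the members and at 20132, 19495, 7011 and 2287 CPM in the goblet-like cells. Mttp, Ces2e and Slc40a1 were at 0 in the goblet-like cells. In the members they were 6.46-fold, 6.71-fold and 4.39-fold above the floor of 112 CPM. The exact lower limit of the ratio was 5.20 for Mttp and 3.52 for Slc40a1. Other gut genes were close in level, with Phgr1 at 3378 and 3337 CPM, Lypd8, a protein that keeps bacteria from the mucosa, at 1482 and 1575 CPM and Cdh17 at 786 and 562 CPM. In the 9 cells past both rules, the 53 enterocyte genes made up 0.952% of UMIs, near the 1.06% of the members.

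**Figure D4:**
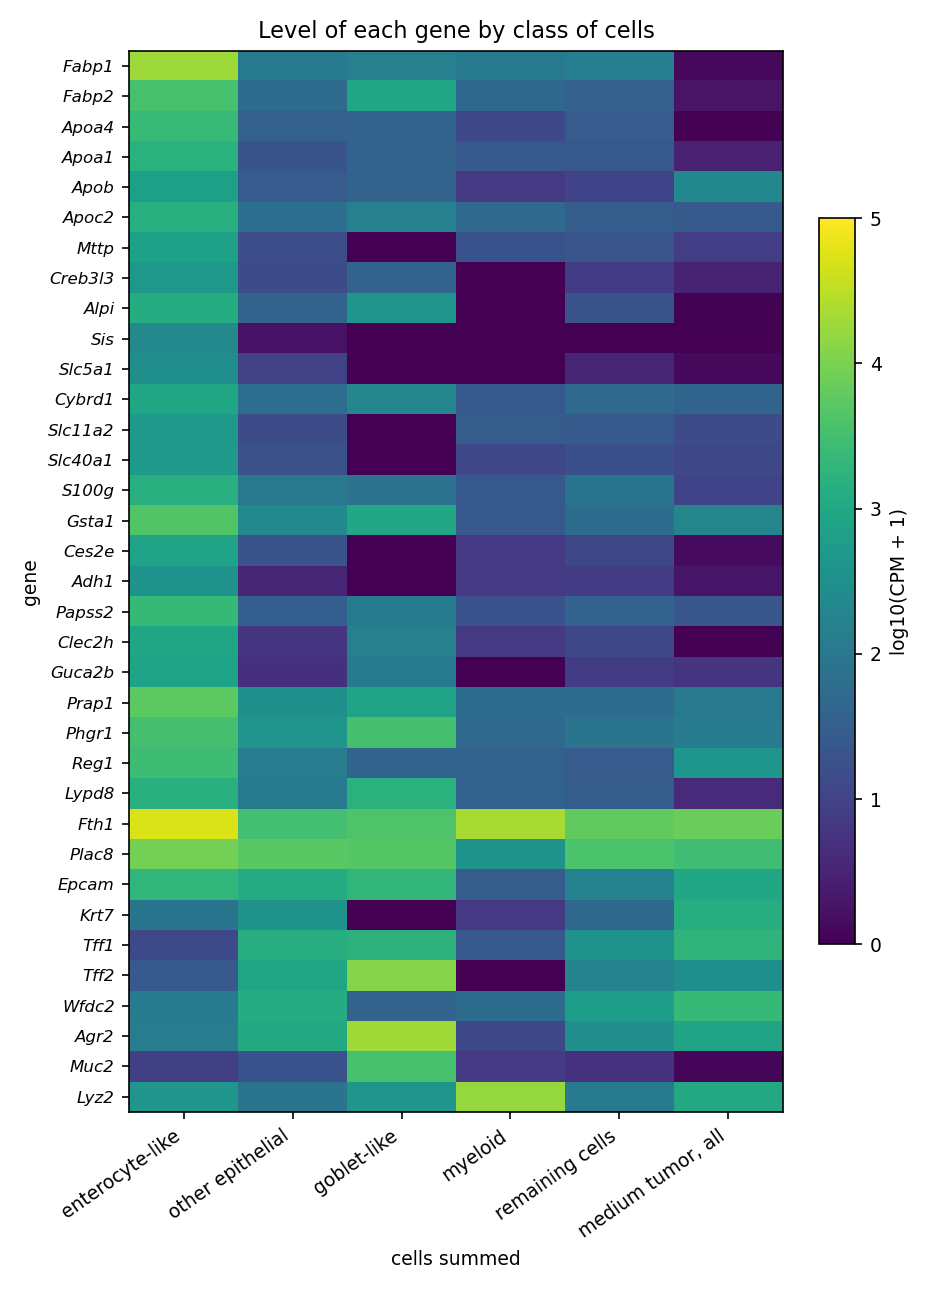
Level of each gene, as log10 of CPM plus 1, in summed enterocyte-like, other epithelial, goblet-like, myeloid and remaining cells of the large tumor and in all cells of the medium tumor. The enterocyte-like column is the brightest for the rows from Fabp1 to Lypd8 apart from Phgr1 and Lypd8, which are about level with the goblet-like cells, and is dark for Tff1 (11.9 CPM) and Muc2 (7.90 CPM).

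Among the members, cells were split by landmark genes known from the villus. Enterocytes leave the crypt at the base of the villus and move to its tip, where they are shed, and they change gene expression on the way. The base list (Reg3b, Reg3g, Reg3a, Lypd8, Nlrp6, Il18, Ccl25) holds antimicrobial genes. The tip list (Ada, Nt5e, Slc28a2, Enpp3, Klf4, Egfr, Cdh1) holds purine handling and adhesion genes besides Klf4 and Egfr. Klf4 gave 111 UMIs of the tip list in the members, against 83 for Ada and 24 for Slc28a2. A member leaned to the list of which it had more UMIs, with no scaling for the level of the lists. The base list gave 1078 UMIs in the members and the tip list 313, so the numbers of leaning cells follow the levels of the lists and are no count of villus positions. By these lists 141 members leaned to the base, 57 to the tip, 22 were equal and 29 had none of the UMIs, at median depths of 877 and 846 UMIs for base and tip. Of 695 genes outside the landmark lists with at least 50 UMIs in the members, 13 were higher in the tip-leaning cells (1.87%) and 22 in the base-leaning cells (3.17%).

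Levels follow as tip-leaning against base-leaning cells. Apob was at 1059 against 530.2 CPM, a ratio of 2.00 (1.40 to 2.84). The lipid handling list as a whole differed less, at 8359 against 6835 CPM, a ratio of 1.22 (1.09 to 1.37). Of the iron genes, Cybrd1 was past 2-fold on the tip side, at 1532 against 724 CPM, a ratio of 2.12 (1.57 to 2.84). Slc11a2, at a ratio of 1.83 (1.16 to 2.84), and Slc40a1, at 1.68 (1.10 to 2.52), were not past 2-fold. Heph, with 26 UMIs in the members, was not compared. S100g, the calcium gene, was at 1343 against 1429 CPM, a ratio of 0.940 (0.709 to 1.23). The list of iron, calcium and vitamin uptake was at 4539 against 3091 CPM, a ratio of 1.47 (1.25 to 1.72). Gsta1 was higher on the base side, at 2553 against 5438 CPM, a ratio of 0.469 (0.389 to 0.564). Xenobiotic metabolism, the list that holds it, was at 6619 against 9163 CPM, a ratio of 0.722 (0.641 to 0.813), but without Gsta1 the other 23 genes were at 4066 against 3725 CPM, a ratio of 1.09 (0.929 to 1.28). Reg1 was at 1589 against 3608 CPM, a ratio of 0.440 (0.346 to 0.555), and at a ratio of 0.259 (0.180 to 0.362) with at least 3 landmark UMIs per cell. It lies on chromosome 6 between Reg3b and Reg3g, base landmarks that set the split. Whether its ratio is separate from theirs was not tested. The rule genes are given as a description only, since the members were admitted on their sum. Apoa4 was at 4349.7 against 2076 CPM and Fabp1 at 13106 against 21359 CPM. Brush border enzymes and nutrient transporters had intervals of the ratio that include 1, from 0.839 to 1.25 and from 0.635 to 1.2. Immediate early genes moved with the split, at 4728 against 3285 CPM, a ratio of 1.44 (1.23 to 1.68), as did the nuclear RNA Malat1, at 21559 against 16166 CPM, a ratio of 1.33 (1.24 to 1.43). The part of either in it was not tested. Klf4, of the tip list, is itself an early response gene in many cells.

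**Figure D5:**
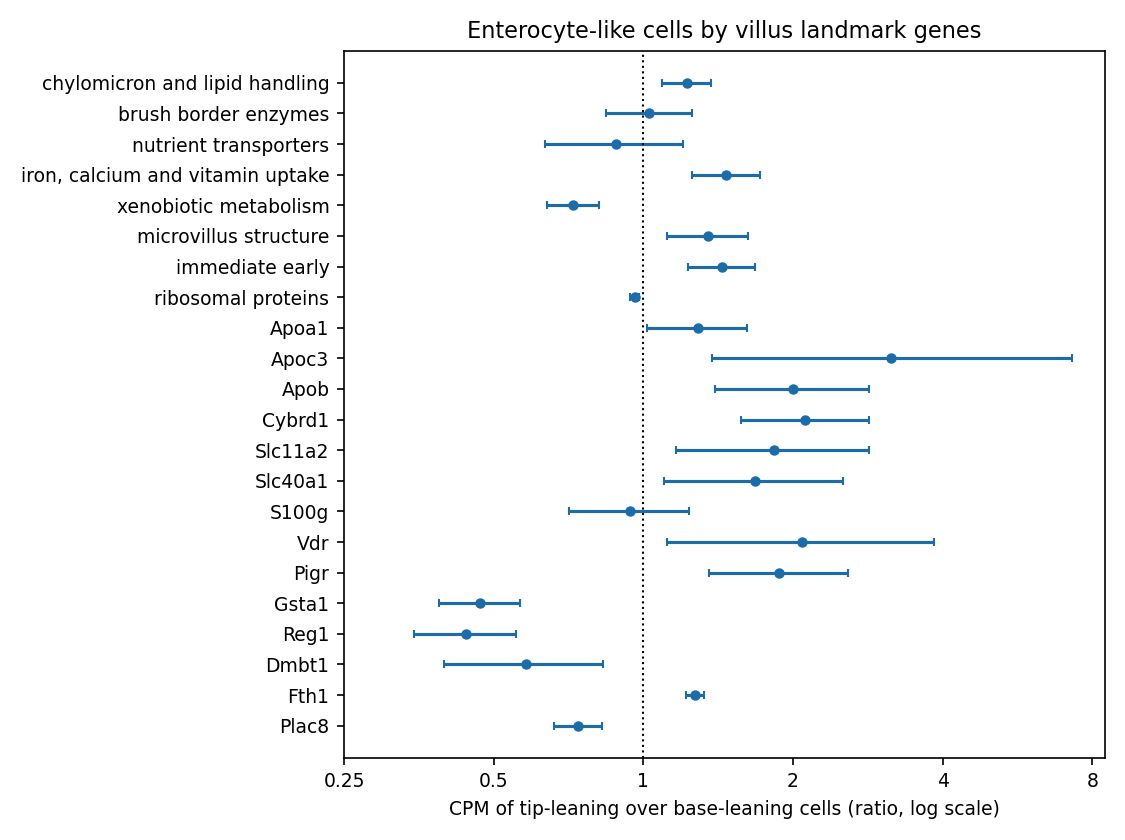
Ratio of CPM (log scale) in the 57 tip-leaning over the 141 base-leaning enterocyte-like cells, for gene lists (top) and single genes, with exact conditional 95% intervals that cover counting error only. Apob and the iron genes Cybrd1, Slc11a2 and Slc40a1 lie right of 1, Gsta1, Reg1, Dmbt1 and Plac8 left of it, and the interval of S100g includes 1.

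Depth also varied among the members. In the 125 members at or above the median of 839 UMIs, ribosomal protein genes were at 236500 against 198490 CPM in the 124 below it, the lipid handling list at 6128 against 8543 CPM and brush border enzymes at 2102 against 3262 CPM. S100g was at 1015 against 2330 CPM, Fth1 at 50274 against 59301 CPM, and Malat1 at 15438 against 23336 CPM, while Gsta1 was at 4516 against 3871 CPM and Dmbt1 at 1204 against 729 CPM. The rule needs 5 UMIs whatever the depth, which sets a higher share for shallow cells, and its part in these differences was not tested. The rule genes themselves were at 21866 against 29322 CPM.

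Clustering of the whole large tumor put 208 of the 249 members (83.5%) into a single cluster of 214 cells, and 29 into a cluster of 155 cells. With the rule genes left out of the clustering, 199 members (79.9%) were in a single cluster of 208 cells. Its leading genes included Papss2, Guca2b, Clec2h, Gm766, H2-Q2, Mttp and Ces2e, besides Fabp1 and Fabp2, which were left out of the clustering but not of this ranking. Another 24 members were in a cluster of 53 cells led by Tff3, Sprr2a3 and Lypd8, and 14 in a cluster of 105 cells led by Lgals2, Dmbt1 and Agr2. Slc28a2, Prap1, Apoa1 and the rule gene Apoa4 were also among the leading genes of the cluster of 53 cells. Leading genes describe a cluster and are no test.

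No cell of the medium tumor met the rule. The highest sum over the rule genes in any of its 2812 cells was 3 UMIs, and 0 cells allows a share of up to 0.107%. Its whole table held 23 UMIs of the rule genes, with Fabp1 at 0.296 CPM against 2214 CPM over all cells of the large tumor. After thinning to 500 UMIs, 210 cells of the large tumor and 0 of the medium tumor met it. Brush border enzymes were at 339.9 CPM in the large and 19.8 CPM in the medium tumor, and 82.7% of the UMIs of the list in the large tumor lay in the members. Without the members the list was at 66.5 CPM in the large tumor, 3.36 (2.74 to 4.10) times the medium tumor. Sis and Apoa4 had 0 UMIs in the medium tumor. Apob, a lipid gene, was higher in the medium tumor, at 213 CPM against 96.5 CPM in the large, and Gsta1 was at 189 CPM in the medium and 654 CPM in the large. The lipid handling list was at 1207 CPM in the large and 671 CPM in the medium tumor, and without the members it was at 478 CPM in the large. In sums over all cells of a tumor, fewer cells of a type and less RNA per cell cannot be told apart. With 1 tumor of each size, size cannot be told apart from the tumor, its dissection or its library.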

How the data were processed

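Single cells of 2 KPC tumors were dissociated with a Miltenyi kit and captured with 10x Genomics Chromium 3′ v2 chemistry. The authors aligned reads and made tables of UMI counts per gene and barcode with CellRanger. The authors' deposited counts are whole and were not normalized. The submitters' processing notes name Cell Ranger and mm10, and the CellRanger version, annotation and filter on barcodes are not given in the sources used here. The tables list 27775 gene rows by symbol (95.3% of them in GENCODE M21), and 47 rows repeat a symbol and were kept apart.

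The members and gene lists were chosen with earlier results of these data known. No barcode or doublet was removed. UMIs were summed over each class of cells in Python 3.11.15 (numpy 2.4.6, scipy 1.17.1) and given as CPM, and a gene was called past 2-fold with 10 CPM added, among genes with at least 20 UMIs over the large tumor. Named genes are, in each comparison within the large tumor, the 20 with the highest and the 10 with the lowest ratio (10 CPM added, gene seen in 15% or more of cells of the higher group), the 10 with the highest CPM in the members, and any gene of the lists. Of 318 list genes 1 was absent from the tables. Steps were tested on simulated data. Cells were thinned to 500 UMIs by random draws. Doublets were scored with Scrublet in scanpy 1.11.5, TMM factors came from edgeR 4.0.16, and clusters from Seurat 5.3.0 in R 4.3.3 (log normalization to 10000, 2000 variable genes, 10 components, resolution 0.8). Other pseudocounts, minimums, scalings, thresholds of the rule and clustering settings were tried as alternatives. Intervals are at the 95% level. Some genes and an allele are not reported here.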

Additional observations from a re-analysis of the deposited data

How the results depend on the processing

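No paired analysis was possible because the technical replicates that share numbers are pooled in 1 table per tumor, and no test was run. Nothing was left out by replicate for the same reason. The number of members was 271 with at least 3 and 205 with at least 10 rule UMIs, 234 with no UMI of Muc2 and Zg16 and 210 with cells thinned to 500 UMIs. Counts of genes moved by more than 1.5 times with the pseudocount and the minimum of UMIs. Adding 50 CPM gave 452 higher and 364 lower genes against all other cells, 449 and 343 against other epithelial cells and 587 and 510 against goblet-like cells. A minimum of 100 UMIs gave 319 and 786, 343 and 743, and 669 and 532, since fewer genes were counted. Adding 1 CPM gave 2452 lower genes against other epithelial cells, and TMM scaling 681 lower genes against goblet-like cells. Thinning to 500 UMIs, chosen after seeing the data, gave 1009 higher and 2032 lower genes against other epithelial cells. Of 521 ratios of single genes, 31 moved beyond their counting interval with TMM scaling and 64 with the mean share over cells, as did 10 of 515 in members with at least 10 rule UMIs and 7 of 516 without the doubted members. No named gene past 2-fold changed sign under TMM scaling, the mean share over cells, members with at least 10 rule UMIs, or leaving out the doubted members. With at least 3 landmark UMIs the tip over base ratio was 0.259 for Reg1, 0.622 for xenobiotic metabolism and 0.934 for ribosomal proteins. Without its gene of most UMIs, Gsta1, an alternative chosen after seeing the data, xenobiotic metabolism turned to 1.09 with at least 1 landmark UMI. With at least 3 it turned to 1.13 (0.934 to 1.37), so its value rests on that gene in both settings. A resolution of 0.4 and 20 components each put 89.6% of members in a cluster mostly of members. These clusters held 36 and 18 nonmembers, against 6 in the reported setting. A resolution of 1.2 put 79.5% of members in such a cluster, with 6 nonmembers. The cause of these moves was otherwise not tested. The depth of 253084 UMIs limits genes under 11.9 CPM in the members.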
